A study of Homo sapiens with 54 samples.

Results

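The genes described here encode the aminoacyl-tRNA synthetases, the enzymes that join each amino acid to its transfer RNA. 36 genes were taken by symbol from the 27978 gene rows of the count table, and no measured value entered that choice. 20 of them carry names that do not end in 2 and are called the cytosolic genes. The other 16 carry names that end in 2, charge tRNA inside mitochondria and are called the mitochondrial genes. The counts came from 54 RNA-seq libraries of MDA-MB-231, an established human breast cancer cell line, in 18 groups of 3 replicates that the submitters call biological. Compound Kushen Injection (CKI) is a herbal extract used beside chemotherapy in China. In batch 1, cells were left untreated or were treated for 24 or 48 h with CKI at 2 mg/ml, or with a mixture at the equivalent of that dose. N-OmtOspc was CKI from which oxymatrine and oxysophocarpine had been removed, and N-MacOmtOspc was CKI that had also lost macrozamin. OmtOspc held only oxymatrine and oxysophocarpine, and MacOmtOspc held those compounds and macrozamin. In batch 2, all at 48 h, cells were untreated or received CKI or CKI lacking a single compound, namely macrozamin (N-Mac), N-methylcytisine (N-Nme), oxymatrine (N-Omt) or trifolirhizin (N-Tri).

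Some features of this design bear on every result. The mixtures were made by fractionating CKI and reconstituting it, and no group here received whole CKI that had gone through the same steps, so the removal of a compound and the preparation cannot be told apart. The labels do not state what the untreated cells were given in place of CKI. All treated groups of a time point and batch were compared with the same 3 untreated libraries, so those comparisons share their controls. The RNA came from bulk cultures, in which fewer cells of a type and less RNA per cell cannot be told apart.

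Aminoacyl-tRNA synthetases set the supply of charged tRNA for translation. In human cells most amino acids have separate genes for the cytosolic and the mitochondrial enzyme, all of them in the nucleus. GARS and KARS are exceptions, since each makes both forms, and QARS has no mitochondrial counterpart. EPRS is a fused enzyme that charges glutamate and proline, and the cytosolic phenylalanine enzyme is built of the subunits FARSA and FARSB. EPRS, IARS, LARS, MARS, QARS, RARS, KARS and DARS are held in the multi-synthetase complex by the scaffold proteins AIMP1, AIMP2 and EEF1E1. When amino acids run short or the endoplasmic reticulum is stressed, the transcription factor ATF4 is known to raise a programme of amino acid genes that includes several cytosolic synthetases. It does so with a C/EBP partner through composite DNA elements whose core reads TGATGNAA.

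The libraries held 17673537 to 26138924 counts each, 18649291 to 25112905 at 24 h, 20073324 to 26138924 at 48 h in batch 1 and 17673537 to 25453736 in batch 2. All 36 genes passed the filter on low counts in every fit. Levels are given as CPM, the gene's count relative to the library size after TMM scaling across all libraries. They are not scaled to transcript length and are compared only within a gene. Of 9 genes typical of MDA-MB-231, 8 had a median of at least 1 CPM, with SPARC just below. Among 6 genes expected low or absent in this line, ESR1 and PGR were at or near 0, while KRT19 had a median of 583 CPM and GATA3 of 15.1 CPM. The summed level of 5 fibroblast markers was 13.8 to 82.9 CPM and that of 4 leukocyte markers 0.786 to 29.1 CPM. The spread between replicates was largest at 24 h, where the common biological coefficient of variation was 0.175 against 0.0763 at 48 h in batch 1 and 0.0480 in batch 2. 3 libraries at 24 h stood apart in their lean towards batch 2, namely CKI replicate 1, N-MacOmtOspc replicate 2 and OmtOspc replicate 2, whose label codes carry no replicate number. The lean was measured over the 1106 of 16072 genes that differed more than 2-fold between the untreated batches at 48 h. Its slopes on the difference between batch 2 and batch 1 were 0.628, 0.616 and 0.587, against -0.392 to 0.122 in the other 15 libraries of that time. Over all genes their median absolute log2 differences from their replicates were 0.314, 0.375 and 0.292. The other 15 libraries were at 0.0862 to 0.351, so only N-MacOmtOspc replicate 2 lay above their range. OmtOspc replicate 1 was at 0.351, measured against a mean that includes OmtOspc replicate 2, and N-OmtOspc replicate 3 was at 0.335. Over the synthetase genes N-OmtOspc replicate 3 was at 0.343. CKI replicate 1, N-MacOmtOspc replicate 2 and OmtOspc replicate 2 were at 0.147, 0.318 and 0.211. Counts without the 3 libraries are given beside the 24 h results.

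The sequence just upstream of the genes is shown first for 4 cytosolic genes. Each was called higher, as defined below, in at least 10 of the 15 comparisons with untreated cells. Each also holds the TGATGNAA core on either strand, and both traits were used to pick them. RefSeq promoter windows of GRCh38.p14, from 250 bases before to 50 bases after a start site, were used for 29 of the 36 genes, matched by symbol, in 38 windows. DARS, LARS, VARS, YARS, AARS2 and VARS2 were not matched. The windows were searched over their 300 bases and are printed to 25 bases after the start. The stretches shown lie at chr11:3057399-3057673 (minus strand) for CARS, the cysteine enzyme. They lie at chr7:30594628-30594902 (plus strand) for GARS, the glycine enzyme, chr12:57487818-57488092 (plus strand) for MARS, the methionine enzyme, and chr18:57621812-57622086 (minus strand) for NARS, the asparagine enzyme. For CARS and GARS the window shown is the only one of 2 that holds the core. Capitals mark the match to TGATGNAA or to its reverse complement.
CARS: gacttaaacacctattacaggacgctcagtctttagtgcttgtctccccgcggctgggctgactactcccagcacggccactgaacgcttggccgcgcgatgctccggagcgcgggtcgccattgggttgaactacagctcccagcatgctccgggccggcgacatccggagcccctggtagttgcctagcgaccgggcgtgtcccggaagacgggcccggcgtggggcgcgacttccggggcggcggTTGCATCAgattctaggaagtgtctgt
GARS: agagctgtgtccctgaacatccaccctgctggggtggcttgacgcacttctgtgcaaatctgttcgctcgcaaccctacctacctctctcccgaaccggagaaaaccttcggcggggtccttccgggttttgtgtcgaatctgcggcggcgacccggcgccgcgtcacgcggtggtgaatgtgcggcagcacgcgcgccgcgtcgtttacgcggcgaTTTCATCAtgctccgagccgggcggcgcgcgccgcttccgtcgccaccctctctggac
MARS: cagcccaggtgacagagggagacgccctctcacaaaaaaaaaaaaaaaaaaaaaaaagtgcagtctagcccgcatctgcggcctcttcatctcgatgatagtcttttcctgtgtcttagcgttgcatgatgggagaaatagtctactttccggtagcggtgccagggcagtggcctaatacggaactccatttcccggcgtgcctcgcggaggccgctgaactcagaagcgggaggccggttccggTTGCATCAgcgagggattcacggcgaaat
NARS: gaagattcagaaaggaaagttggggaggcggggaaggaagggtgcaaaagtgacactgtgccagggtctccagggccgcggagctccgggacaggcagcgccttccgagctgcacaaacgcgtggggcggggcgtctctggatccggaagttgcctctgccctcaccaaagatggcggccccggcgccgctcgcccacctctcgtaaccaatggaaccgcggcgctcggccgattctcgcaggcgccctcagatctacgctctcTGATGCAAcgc

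The match began 33 bases before the start site in GARS, 4 before it in MARS and 2 before it in CARS, and 14 bases after it in NARS. IARS and TARS, the isoleucine and threonine enzymes, also held the core, 13 bases before and 2 bases after a start. They are not shown, as they were called higher in 7 and 9 comparisons and lower in 3 and 3. In all, 6 of the 15 cytosolic genes with a window held it, in 6 of 20 windows. Among the 14 mitochondrial genes with a window it was found only in YARS2, the tyrosine enzyme, in 1 of 18 windows. Of all 35116 RefSeq windows of this length, 3.62% held it. SARS, the serine enzyme, which was also raised in most mixtures, held none of it in either window. The E-box CACGTG was found in 5 of the 38 windows (IARS, CARS2, MARS2 and both windows of EARS2) against 7.26% of all windows. The EARS2 windows overlap and hold the same site, so these are 4 genes. GCATGCGC, a core of the motif of the factor NRF1, was searched on both strands and found in YARS2 and, as overlapping matches on both strands, in MARS2, against 3.05% of all windows. The 4 windows shown held neither of these motifs. A match describes these letters only.

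The first question was what each treatment did to the synthetase genes against untreated cells of the same time point and batch. The cytosolic genes rose in larger numbers than they fell in every mixture group except N-OmtOspc, while with CKI at 48 h they fell in both batches. The mitochondrial genes fell more often than they rose in 12 of the 15 comparisons, although under library totals alone the majority turned for OmtOspc at 48 h (5 higher, 4 lower), N-Nme (6 and 3) and N-Tri (5 and 4). A gene is called higher or lower where the edgeR quasi-likelihood test gave an adjusted p under 0.05 across all genes tested. At 24 h with CKI, 3 of the 20 cytosolic genes were higher and 3 lower, against 15.3% higher and 14.8% lower among the 15191 genes tested, and 1 of the 16 mitochondrial genes was higher and 3 were lower. This count rests on single libraries. It was 10 in all, 4 without untreated replicate 2, and 6 without untreated replicate 1 or without CKI replicate 1. N-OmtOspc at 24 h raised 7 cytosolic genes and lowered 10, with 31.1% of all genes higher and 30.9% lower, and it raised 3 mitochondrial genes and lowered 9. Scaled by library totals alone, which moved the median of all genes there by -0.31, its split of 10 higher and 19 lower over both classes became 5 and 23. N-MacOmtOspc raised 10 cytosolic genes and lowered 4 (all genes 23.2% and 21.8%) and raised 2 mitochondrial genes and lowered 5. OmtOspc raised 8 cytosolic genes and lowered 2 where 9.03% of all genes were higher and 7.72% lower, and no mitochondrial gene was called. Under library totals alone its split was 8 higher and 4 lower. MacOmtOspc raised 7 cytosolic genes and lowered 1, and raised 1 mitochondrial gene, against 5.61% and 4.84% of all genes. Its count of 9 became 20 when only its own and the untreated libraries were fitted. Without the 3 libraries that stood apart, the counts at 24 h over both classes were 12 with CKI, 30 with N-OmtOspc, 21 with N-MacOmtOspc, 14 with OmtOspc and 11 with MacOmtOspc. The shares of all genes called in these refits are not given, so the counts show only a dependence on the libraries fitted.

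At 48 h in batch 1, CKI lowered 11 of the 20 cytosolic genes and 11 of the 16 mitochondrial genes and raised 1 of each class, where 27.0% of the 15513 genes tested were higher and 27.0% lower. N-OmtOspc again moved the cytosolic genes in both directions, with 7 higher and 10 lower beside 38.3% of all genes each way, and 3 mitochondrial genes were higher and 7 lower. N-MacOmtOspc raised 14 cytosolic genes and lowered 5, against 35.8% and 35.3% of all genes. Its mitochondrial genes were close to balance, with 6 higher and 7 lower. OmtOspc raised 12 cytosolic genes and lowered 5 (all genes 29.1% and 28.7%), and 2 mitochondrial genes were higher and 8 lower. Under library totals alone, which moved the median of all genes by 0.11, its split over both classes moved from 14 higher and 13 lower to 18 and 6, and its mitochondrial genes from 2 higher and 8 lower to 5 and 4. MacOmtOspc gave nearly the same counts, 12 cytosolic genes higher and 4 lower beside 25.7% and 25.5% of all genes, and 2 mitochondrial genes higher and 6 lower.

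In batch 2, CKI lowered 16 of the 20 cytosolic genes and raised none, where 32.3% of the 15115 genes tested were higher and 34.2% lower, and it lowered 9 mitochondrial genes and raised 1. Each mixture lacking a single compound raised most cytosolic genes. N-Mac raised 14 and lowered 5, against 36.9% and 35.4% of all genes. N-Nme raised 14 and lowered 5, against 35.9% and 35.4%. N-Omt raised 11 and lowered 7, against 38.4% and 39.9%. N-Tri raised 11 and lowered 5, against 34.8% and 37.4%. Of the 16 mitochondrial genes, 7 were higher and 5 lower with N-Mac, 4 and 5 with N-Nme, 5 and 8 with N-Omt, and 3 and 8 with N-Tri. Under library totals alone the split over both classes moved from 18 higher and 10 lower to 21 and 7 with N-Nme, and from 14 and 13 to 17 and 9 with N-Tri. The share of cytosolic genes called higher exceeded that of all genes in the 10 mixture comparisons other than those of N-OmtOspc, and was close to it with N-OmtOspc at both times and with CKI at 24 h. The share of mitochondrial genes called higher was below or close to that of all genes except with N-Mac, where 7 of 16 were higher beside 36.9%. Their share called lower exceeded that of all genes by most with CKI at 48 h in both batches, N-OmtOspc at 24 h and OmtOspc at 48 h.

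**Figure D1:**
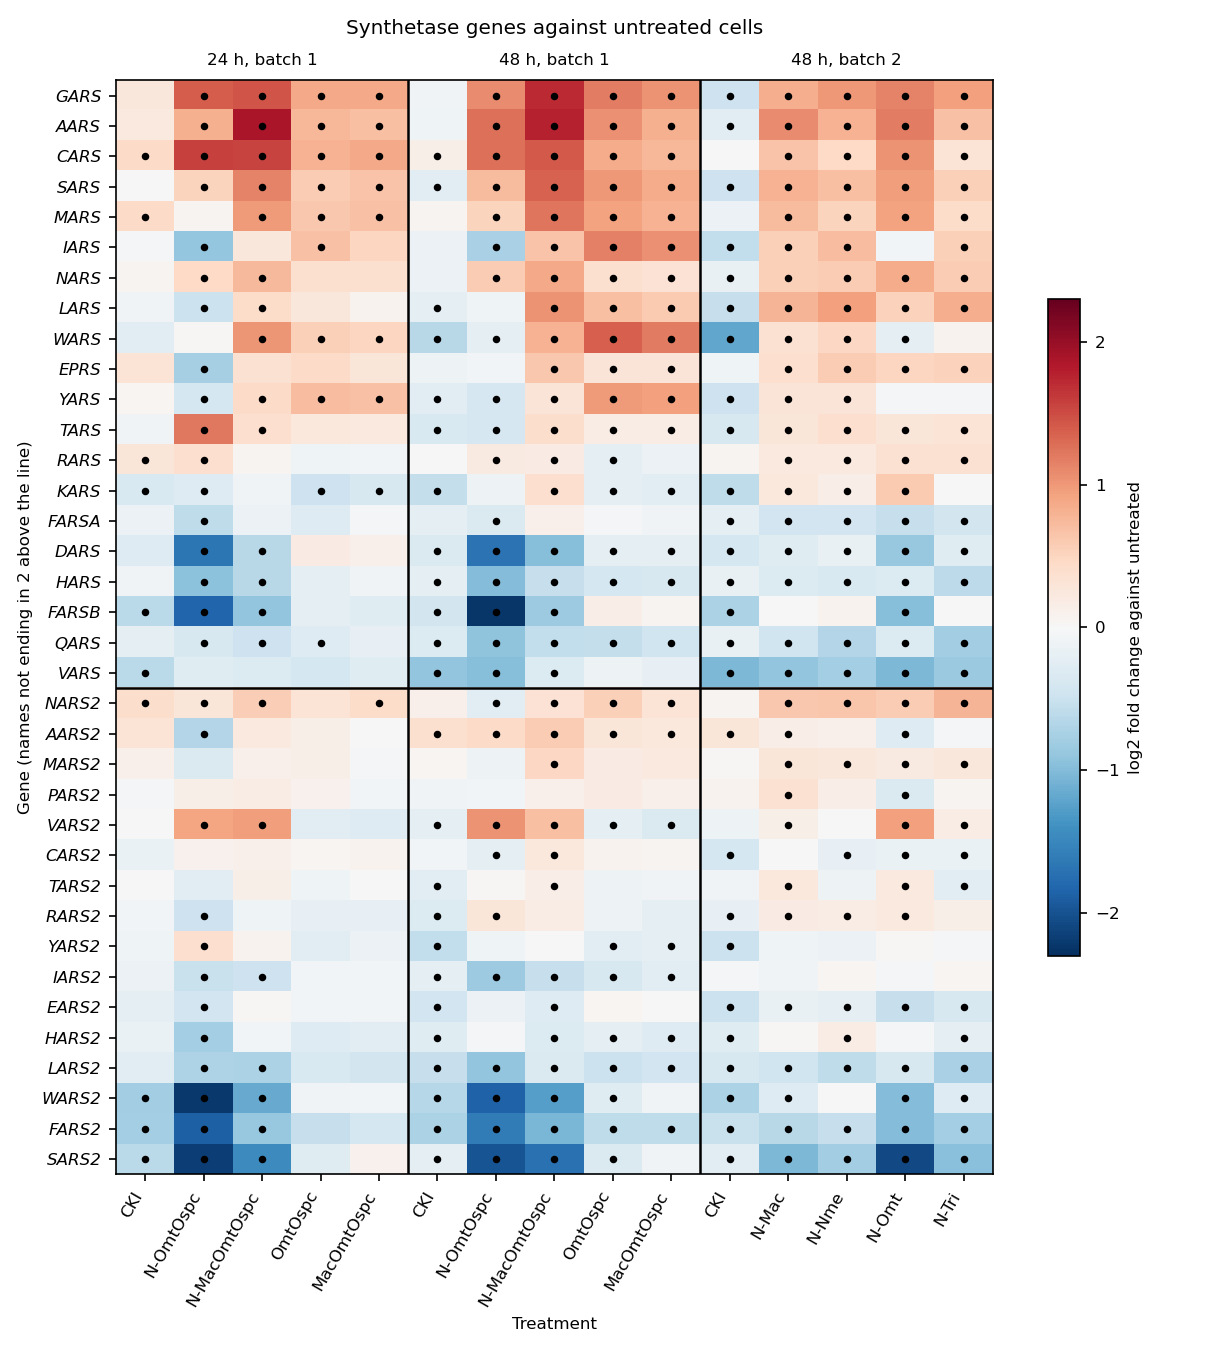
Log2 fold change against untreated cells for each of the 36 synthetase genes (rows, cytosolic above mitochondrial) in the 15 comparisons (columns), with a dot where the edgeR quasi-likelihood test called the gene. Most cytosolic rows are raised in the mixtures other than N-OmtOspc and lowered with CKI at 48 h, and the rows of SARS2 and WARS2 reach -2.17 and -2.22 with N-OmtOspc at 24 h.

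The classes moved apart in most treated groups. For each library the median log2 ratio to the untreated mean was taken over the 20 cytosolic and over the 16 mitochondrial genes, and group values are the mean ± SD of 3 libraries. No test was run on these medians, since the genes of a class are not replicates. The gap was widest with N-MacOmtOspc and OmtOspc at 48 h. N-MacOmtOspc was at 0.53 ± 0.04 for the cytosolic and 0.04 ± 0.08 for the mitochondrial genes. In its 3 libraries the cytosolic medians were 0.52, 0.58 and 0.50 and the mitochondrial medians -0.05, 0.11 and 0.04, with no overlap. OmtOspc at 48 h was at 0.35 ± 0.05 and -0.14 ± 0.02, and N-Nme at 0.44 ± 0.08 and 0.0031 ± 0.05. The order was turned in batch 2 with CKI, where the cytosolic median was -0.39 ± 0.02 and the mitochondrial median -0.21 ± 0.03. In N-OmtOspc at 48 h both lay below untreated, at -0.19 ± 0.04 and -0.14 ± 0.08. The libraries of N-OmtOspc at 24 h were uneven, with cytosolic medians of -0.21, -0.16 and -0.53. Those of N-MacOmtOspc at 24 h were more so, at 0.12, 0.58 and 0.28. The 0.58 was in replicate 2, a library that stood apart in its lean towards batch 2. The untreated libraries of batch 2 were themselves uneven, with cytosolic medians of -0.01, -0.12 and 0.11. The median over all genes stayed between -0.01 and 0.03 in every group, but TMM scaling itself holds it near 0. Library totals alone moved the median log2 fold change of all genes against untreated by -0.31 with N-OmtOspc at 24 h. With OmtOspc at 48 h they moved it by 0.11. The sum of the cytosolic levels ran from a group mean of 2771 CPM with CKI at 48 h in batch 1 to 5679 CPM with N-Nme in batch 2. The untreated sums of these batches at 48 h already differed, at 3334 and 4153 CPM. The mitochondrial sum stayed between 503.8 and 623 CPM.

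**Figure D2:**
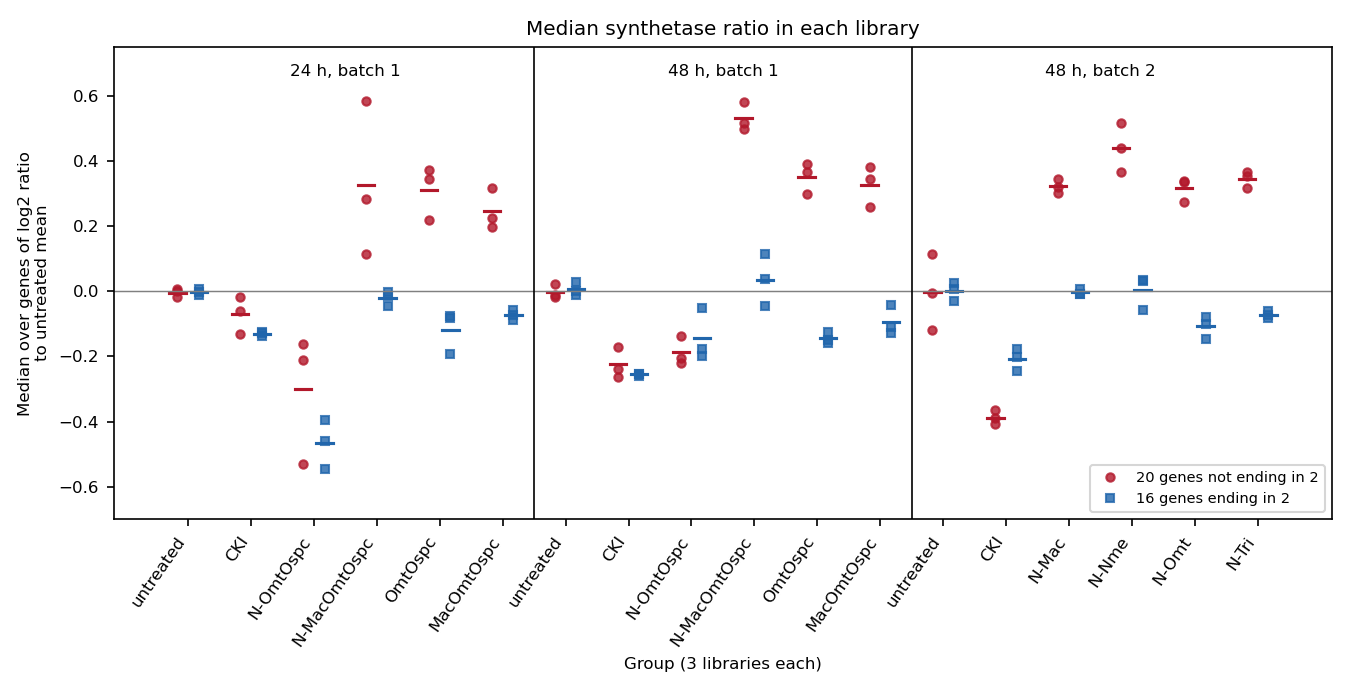
Median log2 ratio to untreated over the 20 cytosolic and the 16 mitochondrial synthetase genes in each library (points), with the group mean as a line, for the 18 groups. With N-MacOmtOspc at 48 h the cytosolic medians are 0.52, 0.58 and 0.50, above all 3 mitochondrial medians, and with CKI in batch 2 they lie below them.

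GARS, which supplies glycyl-tRNA to both the cytosol and mitochondria, had the largest typical change among the cytosolic genes. At 24 h GARS stood at 206, 203 and 198 CPM in untreated cells, 237, 239 and 249 with CKI, 539.9, 557 and 476 with N-OmtOspc, 557, 504 and 581 with N-MacOmtOspc, 400.4, 332 and 376 with OmtOspc and 379.7, 368 and 369 with MacOmtOspc. After 48 h in batch 1 it stood at 227, 217 and 215 CPM in untreated cells, 213, 205 and 206 with CKI, 474, 468 and 449.7 with N-OmtOspc, 665, 821 and 698 with N-MacOmtOspc, 506, 492 and 512 with OmtOspc and 465, 445 and 457 with MacOmtOspc. In batch 2 its level was 350.0, 301 and 418 CPM in untreated cells, 242, 268 and 260.3 with CKI, 630.0, 616 and 652 with N-Mac, 719, 743 and 714 with N-Nme, 773, 797 and 796 with N-Omt and 691, 704 and 697 with N-Tri. Every mixture library lay above every untreated library of its time point and batch, while the CKI libraries lay below them at 48 h in both batches. The log2 fold change was largest with N-MacOmtOspc at 48 h, at 1.72 (SE 0.07) with an adjusted p of 1.66e-15, and smallest among the mixtures with N-Mac, at 0.84 (SE 0.07). With CKI it was 0.26 (SE 0.10) at 24 h and -0.08 (SE 0.07) at 48 h in batch 1, neither of which passed the test (the former passed at 0.27 without the 3 libraries that stood apart, and at 0.31 under library totals alone, 0.25 with DESeq2 and 0.26 with only the groups compared), and -0.47 (SE 0.07) in batch 2, which did (adjusted p = 2.96e-07).

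AARS, the alanine enzyme, was called higher in all 12 mixture comparisons. At 24 h AARS was at 127, 119 and 135 CPM in untreated cells, 149, 149.7 and 148 with CKI, 207, 192 and 259 with N-OmtOspc, 509, 389 and 492 with N-MacOmtOspc, 229.8, 185 and 234 with OmtOspc and 209, 204 and 206 with MacOmtOspc. AARS at 48 h in batch 1 was at 174, 176 and 173 CPM in untreated cells, 169, 155 and 163 with CKI, 406, 413 and 432 with N-OmtOspc, 517, 739 and 530.5 with N-MacOmtOspc, 366, 365 and 365 with OmtOspc and 308, 315 and 305 with MacOmtOspc. AARS in batch 2 was at 227, 191 and 256 CPM in untreated cells, 182, 191 and 194 with CKI, 462, 489 and 472 with N-Mac, 433, 401 and 347 with N-Nme, 509, 508 and 503 with N-Omt and 361, 361 and 371 with N-Tri. All mixture libraries were above the untreated libraries, and N-MacOmtOspc replicate 2 was the highest of its group at 48 h and the lowest at 24 h. The log2 fold changes in the mixtures ran from 0.67 (SE 0.07) with N-Tri to 1.87 (SE 0.13) with N-MacOmtOspc at 24 h. With CKI in batch 2 AARS was lower by the test, at -0.24 (SE 0.07), although the CKI and untreated libraries overlapped. Without untreated replicate 3 the value was -0.15 and did not pass, nor did it under library totals alone (-0.15).

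CARS, the cysteine enzyme, was the cytosolic gene raised in the most comparisons, 14 of 15, and was never lower. At 24 h CARS was at 89.0, 88.1 and 92.1 CPM in untreated cells, 118, 118 and 127 with CKI, 251, 232 and 307 with N-OmtOspc, 286, 209.6 and 293 with N-MacOmtOspc, 174, 132 and 162 with OmtOspc and 172, 157 and 161 with MacOmtOspc. In batch 1 at 48 h it was at 103, 108 and 105 CPM in untreated cells, 118, 116 and 113 with CKI, 256, 253 and 250.3 with N-OmtOspc, 275, 287 and 282 with N-MacOmtOspc, 199, 186 and 193 with OmtOspc and 182, 181 and 179.8 with MacOmtOspc. In batch 2 the values were 135, 126 and 149 CPM in untreated cells, 134, 142 and 136 with CKI, 216, 217 and 208 with N-Mac, 208, 186 and 174 with N-Nme, 286, 283 and 275 with N-Omt and 176, 172 and 176 with N-Tri. Treated libraries lay above the untreated ones in every group but CKI of batch 2, where the ranges overlapped. The change was largest with N-OmtOspc at 24 h, 1.58 (SE 0.14), and stayed at 0.32 (SE 0.06) with N-Tri. With CKI it was 0.43 (SE 0.13) at 24 h, 0.14 (SE 0.06) at 48 h in batch 1 and 0.01 (SE 0.06) in batch 2. Both calls with CKI were marginal. That at 24 h was lost without untreated replicate 1, untreated replicate 2 or CKI replicate 3 (log2 fold change 0.43, 0.42 and 0.40), and that at 48 h in batch 1 was lost when any of the 6 libraries was left out, with values from 0.11 to 0.16, with RLE factors (0.12) and with no filter on low counts (0.13).

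SARS, the cytosolic serine enzyme, was called higher in all 12 mixture comparisons and lower with CKI at 48 h. At 24 h SARS was at 218, 221 and 203 CPM in untreated cells, 194, 220.0 and 222 with CKI, 293, 279 and 326 with N-OmtOspc, 510.2, 397 and 506 with N-MacOmtOspc, 364, 269 and 330.1 with OmtOspc and 355, 323 and 331 with MacOmtOspc. The 48 h values of SARS in batch 1 were 231, 235 and 230.3 CPM in untreated cells, 204, 193 and 186 with CKI, 383, 379.6 and 384 with N-OmtOspc, 543, 641 and 612 with N-MacOmtOspc, 471, 461 and 462 with OmtOspc and 428, 417 and 422 with MacOmtOspc. In batch 2 SARS was at 279.6, 242 and 312 CPM in untreated cells, 196, 203 and 196 with CKI, 485, 483 and 477 with N-Mac, 501, 453 and 418 with N-Nme, 547, 544 and 542 with N-Omt and 423, 406 and 416 with N-Tri. The mixtures lay above and, at 48 h, the CKI libraries below the untreated range. The log2 fold change reached 1.36 (SE 0.06) with N-MacOmtOspc at 48 h. It was 0.51 (SE 0.12) with N-OmtOspc at 24 h, and 0.20 without a call under library totals alone. With CKI it was -0.01 (SE 0.12) at 24 h, -0.25 (SE 0.06) at 48 h in batch 1 (adjusted p = 0.00188) and -0.48 (SE 0.07) in batch 2 (adjusted p = 1.08e-07).

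MARS, the methionine enzyme and a member of the complex, was called higher in 12 comparisons and never lower. At 24 h MARS was at 132, 129 and 127 CPM in untreated cells, 163, 181 and 179 with CKI, 126, 116 and 157 with N-OmtOspc, 248, 264 and 253 with N-MacOmtOspc, 211, 183 and 204 with OmtOspc and 211, 203 and 206 with MacOmtOspc. After 48 h in batch 1 MARS was at 136, 134 and 131 CPM in untreated cells, 141, 141 and 137 with CKI, 184, 196 and 193 with N-OmtOspc, 308, 335 and 306 with N-MacOmtOspc, 255, 258 and 249.7 with OmtOspc and 235, 237 and 232 with MacOmtOspc. MARS in batch 2 was at 170.1, 157 and 201 CPM in untreated cells, 159, 161 and 159.6 with CKI, 286, 299.8 and 282 with N-Mac, 284, 253 and 227 with N-Nme, 340.4, 335 and 333 with N-Omt and 231, 237 and 257 with N-Tri. Only with N-OmtOspc at 24 h did a mixture overlap the untreated libraries, with a log2 fold change of 0.07 (SE 0.10). The largest change was 1.24 (SE 0.06) with N-MacOmtOspc at 48 h. With CKI in batch 2 it was -0.13 (SE 0.07), and it passed the test without untreated replicate 2, at -0.21, and with no filter on low counts, at -0.14. At 48 h in batch 1 it was at 0.07 (SE 0.06) with CKI, and at 0.15 with a call under library totals alone. The MARS locus overlaps DDIT3, a stress-induced transcription factor gene, and ARHGAP9 in the RefSeq annotation. DDIT3 changed by 1.63 with N-OmtOspc at 24 h, 2.12 with N-MacOmtOspc at 48 h and 3.20 with OmtOspc at 48 h, and the part of shared reads in the MARS values was not tested. YARS overlaps S100PBP, CARS2 overlaps ING1, EARS2 overlaps GGA2 and FARS2 overlaps LYRM4 in the same way, and the strand setting of the counting is not given in the sources used here.

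NARS, the asparagine enzyme, was the sixth cytosolic gene called higher in at least 10 comparisons. Its log2 fold changes in the mixtures ran from 0.34 (SE 0.07) with MacOmtOspc at 48 h to 0.88 (SE 0.07) with N-MacOmtOspc at 48 h. With OmtOspc and MacOmtOspc at 24 h it was at 0.38 and 0.38 without passing the test.

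**Figure D3:**
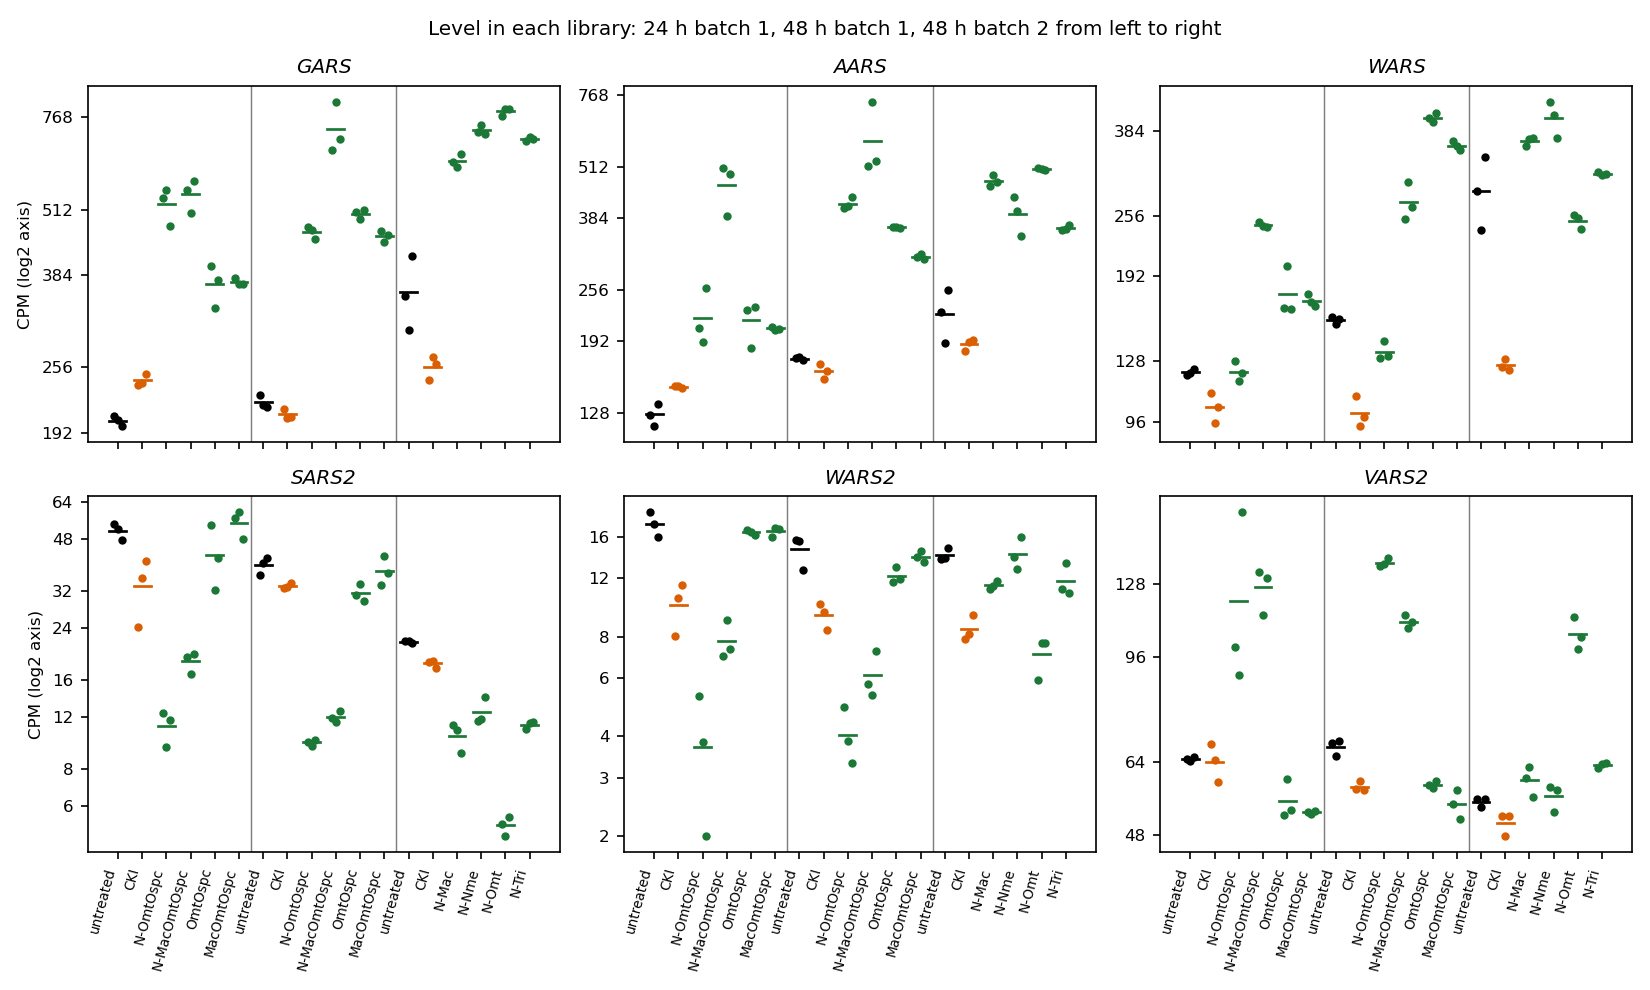
Level in CPM on a log2 axis in each of the 54 libraries for GARS, AARS, WARS, SARS2, WARS2 and VARS2, with the group mean as a line and grey lines between 24 h batch 1, 48 h batch 1 and 48 h batch 2. GARS with N-Omt is at 773, 797 and 796 CPM against 350.0, 301 and 418 in untreated cells, and SARS2 is at 5.23, 4.75 and 5.51 against 21.7, 21.7 and 21.3.

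Other cytosolic genes went down in most treated groups. DARS (aspartate), HARS (histidine) and QARS (glutamine) were each called lower in 12 or 13 of the 15 comparisons and never higher. DARS fell most with N-OmtOspc, to 37.6, 46.8 and 30.3 CPM at 24 h from 119.9, 127 and 122 in untreated cells, and to 41.2, 43.5 and 40.8 from 144, 128 and 135 at 48 h. The log2 fold changes were -1.66 (SE 0.17) and -1.70 (SE 0.08). HARS stood at 53.9, 57.7 and 51.2 CPM with N-OmtOspc at 48 h against 106, 111 and 109 in untreated cells, and changed by -0.95 (SE 0.10) with it at 24 h and by -0.17 (SE 0.05) with CKI in batch 2. QARS lay below the untreated libraries in all 15 comparisons, and only CKI and MacOmtOspc at 24 h missed the threshold. Its changes ran from -0.18 (SE 0.06) with CKI in batch 2 to -0.93 (SE 0.07) with N-OmtOspc at 48 h.

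VARS, the cytosolic valine enzyme, was never called higher and was lowered by CKI and by every mixture lacking a single compound. In batch 2 VARS was at 304, 268 and 319 CPM in untreated cells, 148, 141 and 147 with CKI, 158, 164 and 151 with N-Mac, 177, 168 and 179 with N-Nme, 149, 143 and 143 with N-Omt and 164, 167 and 175 with N-Tri. All treated libraries lay below the untreated ones, with log2 fold changes from -0.78 to -1.04 and SEs of 0.05. The subunits of the phenylalanine enzyme moved unequally. FARSB fell to 7.50, 7.37 and 7.23 CPM with N-OmtOspc at 48 h from 33.0, 35.2 and 35.8 in untreated cells, a log2 fold change of -2.23 (SE 0.08). FARSA changed by -0.34 (SE 0.09) there. With N-Mac, N-Nme and N-Tri, FARSB was at 0.0031, 0.09 and -0.01 without passing the test, whereas FARSA was called lower at -0.44, -0.43 and -0.41.

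A further set of cytosolic genes changed direction between treatments. WARS, the tryptophan enzyme, which interferon also induces, was the clearest of them. At 24 h WARS was at 120.1, 121 and 123 CPM in untreated cells, 110.1, 95.5 and 103 with CKI, 128, 117 and 121 with N-OmtOspc, 249, 244 and 242 with N-MacOmtOspc, 165, 201 and 164 with OmtOspc and 176, 169.6 and 167 with MacOmtOspc. WARS at 48 h in batch 1 was at 158, 153 and 156 CPM in untreated cells, 108, 94.1 and 98.0 with CKI, 129.8, 141 and 131 with N-OmtOspc, 252, 301 and 266 with N-MacOmtOspc, 408, 399.6 and 418 with OmtOspc and 366, 357 and 349.7 with MacOmtOspc. WARS in batch 2 was at 288, 239 and 339 CPM in untreated cells, 124, 129 and 123 with CKI, 357, 369 and 370.3 with N-Mac, 439.9, 413 and 371 with N-Nme, 257, 253 and 240.1 with N-Omt and 315, 311 and 312 with N-Tri. It was highest against untreated with OmtOspc at 48 h, 1.38 (SE 0.07), and lowest with CKI in batch 2, -1.20 (SE 0.07). The untreated libraries of batch 2 ranged widely, and N-Omt, called lower at -0.21 (SE 0.07), overlapped them. IARS (isoleucine) and YARS (tyrosine) also rose with OmtOspc at 48 h, by 1.15 and 0.99, and fell with N-OmtOspc at that time, at -0.74 and -0.39. LARS, the leucine enzyme, fell with N-OmtOspc at 24 h (-0.50) and with CKI in batch 2 (-0.52), and rose to 1.03 with N-MacOmtOspc at 48 h and 0.95 with N-Nme. TARS, the threonine enzyme, was raised by 1.21 (SE 0.10) with N-OmtOspc at 24 h and lowered to -0.39 (SE 0.06) with the same mixture at 48 h. KARS, which serves both compartments for lysine, was lower with CKI in all 3 comparisons (-0.35, -0.55 and -0.58) and higher with N-Omt (0.61, SE 0.05). EPRS rose by 0.63 with N-MacOmtOspc at 48 h and was at -0.77 with N-OmtOspc at 24 h, its only call in the lower direction.

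RARS, the arginine enzyme, had the smallest typical change of the cytosolic genes. At 24 h RARS was at 112, 107 and 101 CPM in untreated cells, 124, 131 and 131 with CKI, 144, 151 and 121 with N-OmtOspc, 104, 118 and 112 with N-MacOmtOspc, 99.7, 101 and 99.4 with OmtOspc and 108, 97.4 and 103 with MacOmtOspc. The 48 h values of RARS in batch 1 were 104, 93.8 and 91.5 CPM in untreated cells, 102, 91.6 and 94.2 with CKI, 114, 109 and 111 with N-OmtOspc, 109, 114 and 109 with N-MacOmtOspc, 86.7, 79.7 and 84.7 with OmtOspc and 91.0, 87.0 and 89.1 with MacOmtOspc. In batch 2 RARS was at 102, 100.4 and 106 CPM in untreated cells, 105, 106 and 111 with CKI, 117, 117 and 122 with N-Mac, 112, 122 and 130.5 with N-Nme, 125, 137 and 133 with N-Omt and 138, 134 and 128 with N-Tri. Its log2 fold changes stayed between -0.22 (SE 0.06) with OmtOspc at 48 h and 0.40 (SE 0.10) with N-OmtOspc at 24 h. Under library totals alone these were -0.11 and 0.08, and neither was called. RARS was called higher in 8 comparisons, among them all 4 mixtures of batch 2, where its libraries lay above the untreated ones. The call with CKI at 24 h (0.27) was lost when any of its 6 libraries was left out, with values from 0.23 to 0.30, and with no filter on low counts (0.27). The call with N-MacOmtOspc at 48 h (0.19) was lost without untreated replicate 3 (0.15) and with only the groups compared (0.20), and that with N-OmtOspc at 48 h (0.21) with no filter (0.17). CKI in batch 2 (0.07) passed under library totals alone (0.16), and MacOmtOspc at 48 h (-0.13) with DESeq2 (-0.15).

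The 8 cytosolic genes of the multi-synthetase complex moved in both directions in several groups. With N-OmtOspc at 24 h 1 of them was higher and 6 lower, and of the 12 outside the complex 6 were higher and 4 lower, beside 31.1% and 30.9% of all genes. With N-MacOmtOspc at 48 h 6 complex members were higher and 2 lower, and 8 and 3 of the others, beside 35.8% and 35.3% of all genes. CKI in batch 2 lowered 5 of the 8 and 11 of the 12, beside 34.2% of all genes. QARS and DARS fell in most groups in which MARS rose. Of the scaffold genes, AIMP2 was called lower in 11 comparisons, with -1.06 (SE 0.11) with N-OmtOspc at 24 h. AIMP1 changed by -1.70 (SE 0.14) in that group and was raised by 0.25 (SE 0.05) with N-Tri. EEF1E1 was raised in all 4 mixtures of batch 2, by 0.53 to 0.83.

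Among the mitochondrial genes, SARS2, the mitochondrial serine enzyme, had the largest typical change. At 24 h SARS2 was at 54.1, 51.9 and 47.8 CPM in untreated cells, 24.1, 35.6 and 40.4 with CKI, 12.4, 9.50 and 11.7 with N-OmtOspc, 19.1, 16.8 and 19.7 with N-MacOmtOspc, 53.6, 32.2 and 41.4 with OmtOspc and 56.7, 59.1 and 48.1 with MacOmtOspc. After 48 h in batch 1 SARS2 was at 36.4, 39.9 and 41.3 CPM in untreated cells, 32.9, 33.1 and 34.2 with CKI, 9.88, 9.61 and 10.1 with N-OmtOspc, 11.9, 11.5 and 12.6 with N-MacOmtOspc, 31.1, 33.8 and 29.5 with OmtOspc and 33.7, 42.0 and 36.8 with MacOmtOspc. SARS2 in batch 2 was at 21.7, 21.7 and 21.3 CPM in untreated cells, 18.5, 18.6 and 17.6 with CKI, 11.2, 10.9 and 9.05 with N-Mac, 11.6, 11.8 and 14.1 with N-Nme, 5.23, 4.75 and 5.51 with N-Omt and 10.9, 11.5 and 11.5 with N-Tri. The libraries lay below the untreated range in every group but OmtOspc and MacOmtOspc at 24 h and MacOmtOspc at 48 h, the 3 groups in which it was not called. The log2 fold change was -2.17 (SE 0.20) with N-OmtOspc at 24 h, -1.99 (SE 0.09) at 48 h, -1.71 (SE 0.09) with N-MacOmtOspc at 48 h and -2.07 (SE 0.09) with N-Omt, the last with an adjusted p of 4.27e-19. With CKI it was -0.62 (SE 0.18), -0.23 (SE 0.08) and -0.24 (SE 0.08). The first of these was lost without untreated replicate 1, untreated replicate 2 or CKI replicate 1 (-0.58, -0.61 and -0.44), and the second without untreated replicate 2 or 3 (-0.22 and -0.19). Under library totals alone the calls at 48 h were lost in both batches, at -0.14 and -0.15. In untreated cells SARS2 was also lower in batch 2 than in batch 1.

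FARS2, the mitochondrial phenylalanine enzyme, was called lower in 13 comparisons. At 24 h FARS2 was at 27.9, 24.2 and 22.2 CPM in untreated cells, 11.7, 15.7 and 15.6 with CKI, 7.74, 7.75 and 4.54 with N-OmtOspc, 13.4, 14.6 and 12.5 with N-MacOmtOspc, 20.2, 16.6 and 14.8 with OmtOspc and 20.9, 17.8 and 17.2 with MacOmtOspc. FARS2 at 48 h in batch 1 was at 22.1, 23.9 and 21.5 CPM in untreated cells, 14.7, 13.9 and 12.0 with CKI, 7.28, 7.29 and 7.51 with N-OmtOspc, 8.38, 13.9 and 10.7 with N-MacOmtOspc, 15.2, 14.9 and 15.1 with OmtOspc and 15.5, 14.2 and 15.7 with MacOmtOspc. In batch 2 FARS2 was at 17.3, 18.4 and 18.9 CPM in untreated cells, 13.3, 13.2 and 11.8 with CKI, 11.7, 11.4 and 11.6 with N-Mac, 14.7, 12.2 and 11.2 with N-Nme, 9.27, 9.04 and 9.19 with N-Omt and 11.4, 10.8 and 10.2 with N-Tri. Every treated library lay below the untreated libraries of its time point and batch. The change ran from -0.41 (SE 0.18) with MacOmtOspc at 24 h, which did not pass the test, to -1.87 (SE 0.19) with N-OmtOspc at 24 h. OmtOspc at 24 h, at -0.53 (SE 0.18), did not pass either. It passed at -0.54 with DESeq2, -0.50 under library totals alone, -0.53 with only the groups compared and -0.65 without its replicate 1, and MacOmtOspc at 24 h passed with only the groups compared (-0.41).

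WARS2, the mitochondrial tryptophan enzyme, followed with 11 calls in the lower direction. At 24 h WARS2 was at 19.0, 17.4 and 16.0 CPM in untreated cells, 8.00, 10.5 and 11.4 with CKI, 5.30, 3.84 and 2.00 with N-OmtOspc, 6.97, 9.00 and 7.33 with N-MacOmtOspc, 16.8, 16.5 and 16.2 with OmtOspc and 16.0, 17.0 and 16.9 with MacOmtOspc. The 48 h values of WARS2 in batch 1 were 15.6, 15.6 and 12.7 CPM in untreated cells, 10.0, 9.47 and 8.39 with CKI, 4.90, 3.87 and 3.32 with N-OmtOspc, 5.76, 5.32 and 7.23 with N-MacOmtOspc, 11.7, 13.0 and 11.9 with OmtOspc and 13.9, 14.5 and 13.4 with MacOmtOspc. WARS2 in batch 2 was at 13.7, 13.8 and 14.8 CPM in untreated cells, 7.87, 8.12 and 9.31 with CKI, 11.2, 11.4 and 11.7 with N-Mac, 13.9, 12.8 and 16.0 with N-Nme, 5.91, 7.67 and 7.63 with N-Omt and 11.2, 13.3 and 10.8 with N-Tri. The lowest library was N-OmtOspc replicate 3 at 24 h, which differed by -1.14 on the log2 scale from the mean of the other replicates, its largest departure over the synthetase genes. The log2 fold change was -2.22 (SE 0.23) with N-OmtOspc at 24 h and -1.86 (SE 0.13) at 48 h. With CKI it was called lower all 3 times, at -0.81 (SE 0.22), -0.65 (SE 0.12) and -0.74 (SE 0.10). With OmtOspc and MacOmtOspc at 24 h the libraries overlapped untreated. The call with OmtOspc at 48 h (-0.28) was lost without untreated replicate 1 or 2 or OmtOspc replicate 1 or 3, with values from -0.26 to -0.23, and under library totals alone (-0.17). That with N-Tri (-0.29) was lost without N-Tri replicate 3 (-0.23) and under library totals alone (-0.19).

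LARS2, the mitochondrial leucine enzyme, was called lower in 12 comparisons with smaller changes. At 24 h LARS2 was at 44.3, 46.0 and 44.0 CPM in untreated cells, 35.2, 40.2 and 37.1 with CKI, 30.7, 28.7 and 21.4 with N-OmtOspc, 23.1, 34.5 and 23.7 with N-MacOmtOspc, 32.9, 37.8 and 34.5 with OmtOspc and 33.3, 33.3 and 33.7 with MacOmtOspc. After 48 h in batch 1 LARS2 was at 45.1, 40.5 and 42.5 CPM in untreated cells, 29.7, 29.1 and 29.9 with CKI, 22.0, 23.4 and 23.1 with N-OmtOspc, 30.8, 40.9 and 31.0 with N-MacOmtOspc, 29.8, 31.1 and 30.5 with OmtOspc and 30.2, 33.9 and 31.5 with MacOmtOspc. In batch 2 LARS2 was at 42.4, 41.1 and 42.9 CPM in untreated cells, 34.0, 29.9 and 33.6 with CKI, 29.2, 32.2 and 30.5 with N-Mac, 30.9, 29.0 and 25.6 with N-Nme, 34.0, 32.3 and 32.1 with N-Omt and 25.3, 27.0 and 25.0 with N-Tri. All groups but N-MacOmtOspc at 48 h lay below the untreated libraries. The change was largest with N-OmtOspc at 48 h, -0.90 (SE 0.09), and the 3 comparisons that missed the threshold, CKI, OmtOspc and MacOmtOspc at 24 h, were at -0.25, -0.35 and -0.42. The last 2 passed it, at -0.41 and -0.42, without the 3 libraries that stood apart. MacOmtOspc also passed with DESeq2 (-0.43) and with only the groups compared (-0.42).

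TARS2, the mitochondrial threonine enzyme, had the smallest typical change of its class. At 24 h TARS2 was at 37.6, 37.4 and 37.8 CPM in untreated cells, 35.4, 39.4 and 38.2 with CKI, 27.7, 27.8 and 36.6 with N-OmtOspc, 44.8, 34.8 and 43.9 with N-MacOmtOspc, 39.6, 35.7 and 29.6 with OmtOspc and 38.4, 37.5 and 36.6 with MacOmtOspc. TARS2 at 48 h in batch 1 was at 37.5, 34.7 and 38.0 CPM in untreated cells, 30.8, 30.3 and 30.9 with CKI, 36.9, 38.0 and 37.2 with N-OmtOspc, 38.3, 41.3 and 43.1 with N-MacOmtOspc, 35.7, 33.6 and 33.7 with OmtOspc and 36.0, 35.0 and 33.5 with MacOmtOspc. TARS2 in batch 2 was at 37.6, 35.4 and 38.6 CPM in untreated cells, 34.9, 34.3 and 36.3 with CKI, 44.9, 45.6 and 40.2 with N-Mac, 39.4, 35.6 and 29.9 with N-Nme, 46.2, 43.1 and 41.2 with N-Omt and 34.6, 30.6 and 31.5 with N-Tri. It was called in 5 comparisons, higher with N-MacOmtOspc at 48 h (0.15), N-Mac (0.24) and N-Omt (0.22) and lower with CKI at 48 h in batch 1 (-0.26) and N-Tri (-0.24). Some of these calls depended on a library or on the setting. That with N-MacOmtOspc was lost without untreated replicate 2 (0.11) or without its replicate 2 or 3 (0.14 and 0.11). It was also lost under library totals alone (0.10), with no filter on low counts (0.14) and with only the groups compared (0.16). The call with N-Omt was lost without its replicate 1 (0.17), and that with N-Tri under library totals alone (-0.15). N-Nme passed at -0.22 without its replicate 1, and N-OmtOspc at 24 h, at -0.27 (SE 0.13) with all libraries, passed at -0.41 without its replicate 3 and at -0.57 under library totals alone.

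Not all mitochondrial genes fell. NARS2, the asparagine enzyme, was called higher in 11 comparisons, up to 0.77 (SE 0.08) with N-Tri, and lower only with N-OmtOspc at 48 h (-0.27, SE 0.10). VARS2, the valine enzyme, rose by most in the mixtures that lacked oxymatrine. It was at 137, 138 and 141 CPM with N-OmtOspc at 48 h against 68.7, 65.3 and 69.3 in untreated cells, a log2 fold change of 1.04 (SE 0.06). In batch 2 it was at 112, 99.0 and 104 with N-Omt against 55.2, 53.5 and 55.2 in untreated cells (0.94, SE 0.06), and at 0.01 (SE 0.06) with N-Nme. N-Mac and N-Tri raised it by 0.13 and 0.17. OmtOspc and MacOmtOspc at 48 h lowered it, to -0.22 and -0.33. AARS2, the alanine enzyme, was raised by CKI at 48 h in both batches (0.37 and 0.28), in contrast to most of its class, and was at -0.68 (SE 0.14) with N-OmtOspc at 24 h. MARS2, the methionine enzyme, was never lower and was raised in all 4 mixtures of batch 2 by 0.20 to 0.27. IARS2 and EARS2, for isoleucine and glutamate, were never called higher, and reached -0.84 (SE 0.06) with N-OmtOspc at 48 h and -0.53 (SE 0.07) with N-Omt. The remaining genes, CARS2, HARS2, PARS2, RARS2 and YARS2, were called in both directions, with changes between -0.78 and 0.39, the values of HARS2 and YARS2 with N-OmtOspc at 24 h.

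For 13 amino acids a cytosolic and a mitochondrial gene could be set side by side as a pair. The differences below are the log2 fold change of the cytosolic gene minus that of the mitochondrial gene against untreated, and no test was made of them. The serine pair showed the largest gap. With N-MacOmtOspc at 48 h SARS was at 1.36 and SARS2 at -1.71, a difference of 3.07, and with N-Omt they were at 0.97 and -2.07. The serine difference was above 0 in 13 of 15 comparisons, with a median of 1.51. For cysteine the cytosolic gene was above in all 15, by 0.19 to 1.47. The pairs of leucine, methionine and tryptophan had it above in 14 of 15. Valine went the other way. VARS was above VARS2 in 3 of 15 comparisons and the difference reached -2.01 with N-OmtOspc at 48 h. HARS was above HARS2 in 5 and NARS above NARS2 in 7. By treatment, the cytosolic gene was above in 4 of 13 pairs with CKI in batch 2 and in 8 to 12 pairs in each other comparison.

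**Figure D4:**
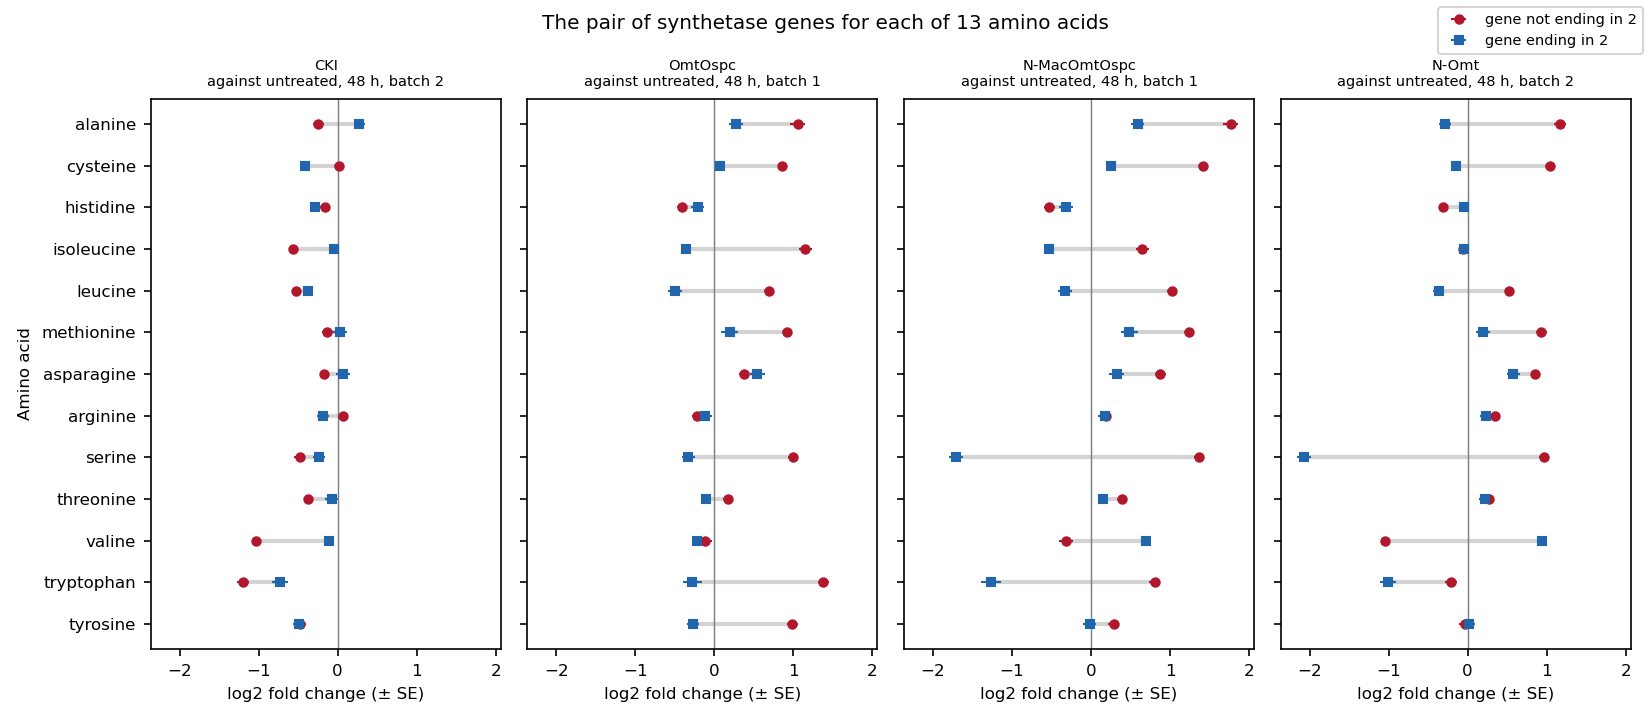
Log2 fold change against untreated (± SE) of the cytosolic gene (circle) and the mitochondrial gene (square) for 13 amino acids, with CKI in batch 2, OmtOspc and N-MacOmtOspc at 48 h in batch 1, and N-Omt. For serine the symbols lie at 0.97 and -2.07 with N-Omt, and for valine in the reverse order at -1.04 and 0.94.

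The second question was how cells given CKI without named compounds differed from cells given whole CKI at the same dose equivalent. At 48 h all 6 of these mixtures had higher levels than CKI of the cytosolic genes GARS, AARS, SARS, CARS, MARS, NARS, KARS, RARS and WARS and of the mitochondrial genes RARS2 and YARS2. All 6 had lower levels of SARS2, HARS and QARS. In the single comparisons 33.1% to 37.1% of all genes were higher and 34.1% to 39.2% lower. The comparisons of a batch share their CKI libraries. The share of all genes that moved the same way in all 6 is not given, so these lists are not particular to the synthetases. In batch 1 at 24 h, N-OmtOspc had 8 cytosolic genes higher and 9 lower than CKI, beside 29.2% and 29.5% of all genes, and 2 mitochondrial genes higher and 8 lower. Under library totals alone, which moved the median of all genes by -0.36, the split of 10 higher and 17 lower over both classes became 4 and 24. N-MacOmtOspc at 24 h had 11 cytosolic genes higher and 2 lower (all genes 17.6% and 18.1%), and 1 mitochondrial gene higher and 3 lower. That count of 17 fell to 11 without CKI replicate 2. Without the libraries that stood apart the counts were 25 and 16, and the shares of all genes in that fit are not given. At 48 h N-OmtOspc had 9 cytosolic genes higher and 6 lower, against 36.0% and 37.1%, and 6 mitochondrial genes higher and 7 lower. N-MacOmtOspc at 48 h had 16 cytosolic genes higher and 4 lower, against 33.1% and 34.1%, with 9 mitochondrial genes higher and 4 lower. There library totals alone moved the median of all genes by -0.13.

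In batch 2 the mixtures lacking a single compound differed from CKI in 17 cytosolic genes higher and 3 lower with N-Mac (35.1% and 34.3% of all genes). With N-Nme 17 were higher and 3 lower (35.8% and 35.7%), with N-Omt 14 and 5 (37.1% and 39.2%), and with N-Tri 17 and 3 (34.5% and 36.9%). The mitochondrial genes were higher in 11, 8, 7 and 7 cases and lower in 1, 3, 5 and 4, in the same order. GARS against CKI was at 1.31 (SE 0.07) with N-Mac, 1.48 (SE 0.07) with N-Nme, 1.61 (SE 0.07) with N-Omt and 1.41 (SE 0.07) with N-Tri. WARS, which CKI had lowered, was at 1.55, 1.68, 0.99 and 1.28 in that order. VARS, also lowered by CKI, was at 0.13, 0.24, -0.01 and 0.18, of which the value for N-Omt did not pass the test. SARS2 was at -1.83 (SE 0.10) with N-Omt and between -0.80 and -0.56 with the other three. FARSB was above CKI with N-Mac, N-Nme and N-Tri, at 0.73, 0.81 and 0.71, and below it with N-Omt, at -0.25 (SE 0.07). DARS and WARS2 had the same pattern of signs, with DARS at -0.46 and WARS2 at -0.27 with N-Omt. The mixtures were not tested against each other.

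**Figure D5:**
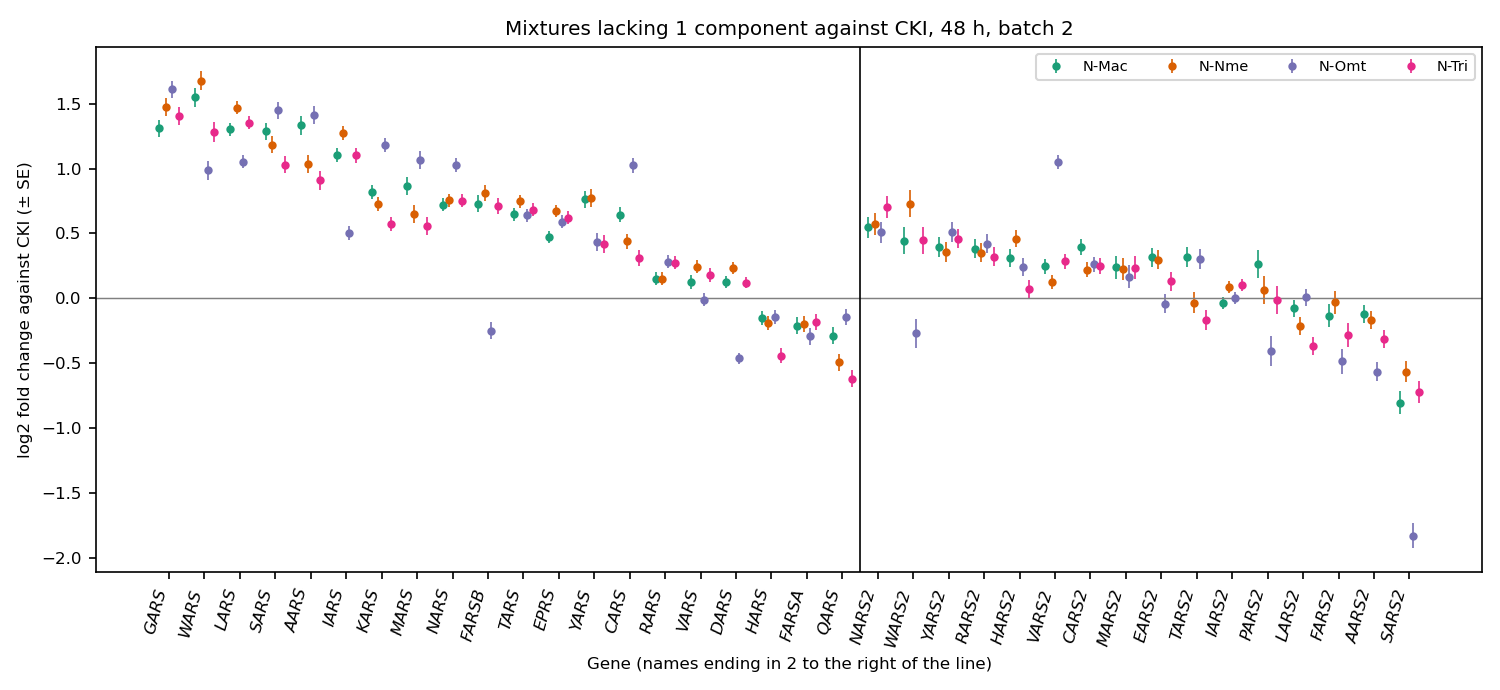
Log2 fold change (± SE) against CKI at 48 h in batch 2 for each of the 36 synthetase genes (horizontal axis, mitochondrial genes to the right of the line) with N-Mac, N-Nme, N-Omt and N-Tri (colours). GARS lies between 1.31 and 1.61, and N-Omt is apart from the other three for SARS2 at -1.83 and FARSB at -0.25.

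The effect of CKI was compared between time points and between batches as a difference of log2 fold changes. Between 24 and 48 h in batch 1 no synthetase gene passed the edgeR quasi-likelihood test, where 0.391% of the 15858 genes tested did. The smallest adjusted p of a synthetase gene was 0.149 by that test, and DESeq2 called MARS and WARS. Of the 36 differences 30 were below 0, with a median of -0.19 where that of all genes was -0.0032. These genes share the same libraries, so their signs are not separate evidence, and no test was made of them. Between the batches at 48 h 6 synthetase genes passed, all with a lower value in batch 2, against 8.90% of the 15872 genes tested in either direction. They were WARS (-0.55, SE 0.11), IARS (-0.41), GARS (-0.38, SE 0.10), CARS2 (-0.34), FARSB (-0.30) and LARS (-0.30). The untreated libraries differ between the batches too, with GARS at 227, 217 and 215 CPM in batch 1 and 350.0, 301 and 418 in batch 2. Without untreated replicate 3 of batch 2, its highest GARS library, 4 genes passed and GARS (-0.25) and LARS did not. GARS was also lost without CKI replicate 1 of batch 2 (-0.33), and without untreated replicate 2 of batch 2 SARS passed as the seventh (-0.31).

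The genes of the amino acid response, a list of 25 that holds no synthetase gene, had more members called higher than lower in every mixture. With N-MacOmtOspc at 24 h 22 were higher and 0 lower, beside 23.2% and 21.8% of all genes. With OmtOspc at 48 h the counts were 22 and 0 (all genes 29.1% and 28.7%), and with N-Omt 20 and 5 (all genes 38.4% and 39.9%). Their median log2 fold changes in these groups were 1.72, 1.28 and 0.92. N-OmtOspc, in which the cytosolic synthetases were mixed, raised 19 of the 25 at 48 h and lowered 4, beside 38.3% and 38.3% of all genes. With CKI at 24 h 5 were higher and 4 lower, with a median of 0.0041 (all genes 15.3% and 14.8%). At 48 h with CKI 5 were higher and 15 lower in batch 1 (all genes 27.0% and 27.0%), and 4 and 18 in batch 2 (all genes 32.3% and 34.2%). ATF4 itself was lower with CKI in all 3 comparisons, at -0.48 (SE 0.14), -0.38 (SE 0.06) and -0.40 (SE 0.07). It rose by 0.95 (SE 0.06) with N-MacOmtOspc at 48 h and was at 0.13 (SE 0.07) with N-Tri, which did not pass the test. ASNS, which makes asparagine, rose by 2.04 with N-MacOmtOspc at 48 h and was at -0.15 (SE 0.21) with CKI in batch 2.

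Other parts of the tRNA and translation machinery were counted for comparison. The 78 mitochondrial ribosomal protein genes had 2 to 50 members lower and 0 to 27 higher over the 15 comparisons with untreated. The 26 genes of tRNA processing, modification and export had 3 to 17 lower and 0 to 8 higher. Of all genes, 4.84% to 39.9% were lower and 5.61% to 38.4% higher. Both lists had more members lower than higher in all 15, in some on few calls. Their medians ran from -0.35 to -0.03 and from -0.53 to -0.02. RNA polymerase III genes, which transcribe tRNA, had medians from -0.20 to 0.12. The 8 cytosolic elongation factor genes had medians from -0.45 to 0.91, the highest with N-OmtOspc at 24 h. The 12 mitochondrial translation factor genes had medians from -0.35 to 0.28. Of the other charging and proofreading genes, 10 of 11 were tested, with medians from -0.76 to 0.13.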

How the data were processed

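RNA-seq libraries were made from oligo(dT)-selected RNA of 54 MDA-MB-231 cultures in 18 groups of 3. The authors deposited raw read counts per gene for hg19, with no normalization. Per the submitters' processing notes, reads were checked with FastQC 0.11.4, trimmed with Trim Galore 0.3.7, aligned with STAR 2.5.3a and counted with featureCounts of Subread 1.5.2, and edgeR 3.22.3 was used. The strand setting of the counting is not given in the sources used here.

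The synthetase genes were found by symbol. Groups, times and batches came from the labels. Counts were analysed in R 4.3.3 with edgeR 4.0.16, using filterByExpr, TMM scaling and the quasi-likelihood F test in a single fit of 18 libraries for each time point and batch, with Benjamini-Hochberg adjustment over all genes tested and a threshold of 0.05. Interaction terms tested whether CKI acted differently at 24 and 48 h, or in batch 1 and batch 2. Each of the 54 replicate pairs differed by more than sampling noise, with a chi-square per degree of freedom of at least 1.92. p-values measure the spread between these cultures. Alternatives were RLE or library-total scaling, no filter, DESeq2 1.42.0, a replicate block, fits of only the groups compared and each library left out. The code was tested on simulated data. Full values are given for the 5 cytosolic and 4 mitochondrial genes with the largest median absolute log2 fold change against untreated and for the smallest in each class. WARS and VARS were added after their values were seen. The members, gene lists and tests were chosen with earlier results of these data known. Promoter sequences are from RefSeq GRCh38.p14. The promoter of 1 gene is not reported here.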

Additional observations from a re-analysis of the deposited data

Results flagged for a closer look

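The effect of CKI at 48 h differed between batch 2 and batch 1 for 6 synthetase genes in a test of the difference itself (edgeR quasi-likelihood interaction). Of the 15872 genes tested, 8.90% passed in either direction. All 6 differences were negative, for WARS, IARS, GARS, LARS, FARSB and CARS2. Over all 36 synthetase genes the median difference was only -0.023, and 21 were negative. The difference for GARS was -0.38 with an adjusted p of 0.0131. Its untreated level was 301 to 418 CPM in batch 2 and 215 to 227 CPM in batch 1, and without untreated replicate 3 of batch 2 the difference was -0.25 and did not pass. Without CKI replicate 1 of batch 2 it was -0.33 and did not pass. Batch, culture and preparation of the extract cannot be told apart here.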

How the results depend on the processing

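Of the counts of called synthetase genes in 25 comparisons, those with RLE factors, library totals alone, no filter and the replicate block stayed within 1.5 times the main count. The count for MacOmtOspc at 24 h rose from 9 to 20 when only the groups compared were fitted. Shares of all genes called under the alternatives are not given, so these counts show only how the calls depend on the setting. The time difference of the CKI effect went from 0 to 2 with DESeq2 and to 1 with only the groups compared. Leaving out a library gave 4 to 8 genes for CKI at 24 h (10 with all libraries), 11 to 15 for N-MacOmtOspc against CKI at 24 h (17), 8 to 15 for OmtOspc at 24 h (10) and 4 to 7 for the batch difference (6). The cause was not tested. Over the 11 fully described genes, 33 calls were lost and 5 gained when a library was left out, 10 lost and 5 gained under library totals alone, and 5 gained with DESeq2, in the comparisons with untreated cells and the differences of the CKI effect. For these genes and comparisons no called value changed sign under any alternative. The other synthetase genes and the comparisons with CKI were recomputed as counts only. The replicate numbers did not pair the samples, since all 3 correlations of a group pair passed 0.1 in 1 of 15 pairs at 24 h and in 0 of 15 at 48 h in each batch. With the replicate block the counts were 10 for CKI and 9 for MacOmtOspc at 24 h and 6 for the batch difference. Under the block the calls of CARS with CKI at 48 h in batch 1 (0.14, adjusted p = 0.0530 by the edgeR quasi-likelihood test), TARS2 with N-MacOmtOspc at 48 h (0.15, adjusted p = 0.0538) and WARS2 with OmtOspc at 48 h (-0.27, adjusted p = 0.0532) were lost, and FARS2 with OmtOspc at 24 h was gained (-0.53, adjusted p = 0.0458). It changed no other call of the 11 genes. At 24 h the biological coefficient of variation was 0.175.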
